A study of Mus musculus with 6 samples.

Results

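The genes described here are Mexis, the liver X receptors and the cholesterol efflux and lipid genes tied to them, in mouse J774A.1 macrophages given neuropeptide FF (NPFF). The set names 10 genes: Mexis, Nr1h2, Nr1h3, Abca1, Abcg1, Apoe, Npc1, Srebf1, Lpcat3 and Mylip. The set was chosen from an earlier result of these data, a lower level of the noncoding RNA Mexis after NPFF, in order to ask whether Abca1 and other LXR-linked genes were lower as well. The Mexis difference is therefore given as a description, with no test. For each gene the brightest array feature paired with that symbol alone was taken, which measured 9 of the 10 genes, among 22180 genes in all. Nr1h2, which encodes LXR beta, had no such feature and was not analysed here.

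The study compared 3 arrays of cells given NPFF at 1 nM in phosphate-buffered saline (PBS) for 18 h with 3 arrays of control cells, which received the PBS vehicle for 18 h and which the sample titles also call non-treated. J774A.1 is an established macrophage-like tumour line of BALB/c mice, so all 6 arrays came from a single cell line. The sample records give 10% serum and 80% confluence for all 6. The titles number biological replicates 1 to 3 in each group, but the labels do not say whether these were separate cultures or days, and p-values then measure the spread between these samples, which may be technical. Values are quantile-normalized log2 intensities and differences are NPFF minus control, so that a difference of 1 is a doubling.

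Liver X receptors are nuclear receptors that bind oxysterols, pair with a retinoid X receptor (RXR) and sit on DNA at direct repeats of a short half-site spaced by 4 bases. In macrophages loaded with sterol they switch on genes that move cholesterol out of the cell, among them the transporters Abca1 and Abcg1. Mexis is a mouse noncoding RNA of macrophages that is itself induced by LXR, is transcribed from the neighbourhood of Abca1, and has been described as supporting Abca1 transcription together with the RNA helicase Ddx17.

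The stretches before the annotated starts of Abca1, Srebf1 and Mexis are shown to set the stretches of Abca1 and Srebf1 in which a form of the LXR repeat was found beside that of Mexis, in which none was. They are the 250 bases before each start site in the RefSeq promoter table, build GRCm38.p6, all on the minus strand and written 5′ to 3′. The Abca1 stretch is chr4:53159896-53160145, the Srebf1 stretch chr11:60210472-60210721, the nearest to the 3′ end among the 3 start sites listed for that gene, and the Mexis stretch chr4:53270233-53270482. Capitals mark matches to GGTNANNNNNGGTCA, a relaxed form of the repeat, on either strand.
Abca1: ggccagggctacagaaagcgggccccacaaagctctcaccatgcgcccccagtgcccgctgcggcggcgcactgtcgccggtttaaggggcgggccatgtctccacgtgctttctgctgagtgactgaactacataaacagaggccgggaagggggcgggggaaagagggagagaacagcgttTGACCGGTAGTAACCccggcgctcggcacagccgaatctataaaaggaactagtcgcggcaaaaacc
Srebf1: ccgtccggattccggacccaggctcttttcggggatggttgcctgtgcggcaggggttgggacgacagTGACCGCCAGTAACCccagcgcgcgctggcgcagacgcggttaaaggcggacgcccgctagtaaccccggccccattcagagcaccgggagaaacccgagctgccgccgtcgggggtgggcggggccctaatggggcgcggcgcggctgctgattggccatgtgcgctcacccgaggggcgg
Mexis: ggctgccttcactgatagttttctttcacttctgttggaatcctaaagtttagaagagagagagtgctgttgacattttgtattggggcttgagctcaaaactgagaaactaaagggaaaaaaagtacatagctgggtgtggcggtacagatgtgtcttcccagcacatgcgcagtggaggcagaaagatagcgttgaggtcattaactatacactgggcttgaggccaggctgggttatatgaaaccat
The match in Abca1 ended 52 bases before the start site and read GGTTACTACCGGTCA on the opposite strand, and the match in Srebf1 ended 167 bases before it and read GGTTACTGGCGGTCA. The letters were relaxed until they held the repeat in Abca1, so that match is no finding. They were present in 2 of the 14 listed promoters of 8 of the genes, and the Abca1 match among these was set by that choice. Of 32851 mouse promoter stretches of the same length 0.177% held them. The count of 2 is therefore not to be compared with that share. With AGGTCA as the half-site, repeated after 4 bases on either strand with at most 2 mismatches, 0 of the 14 stretches and 2.57% of all had a match. Neither Mexis start site had a match by either form. Abcg1 and Npc1 were not looked up, having no entry in that table.

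The arrays carried macrophage RNA by their markers. All 8 macrophage markers lay between the 92.1st and 99.9th percentiles of mean signal over all genes, while 24 measured markers of fibroblasts, epithelium, endothelium, lymphocytes, adipocytes and hepatocytes lay between the 10.2nd and the 62.7th. The mean of those 24 markers ranged from 6.03 to 6.06 in the NPFF arrays and from 5.996 to 6.08 in the control arrays. That of the 8 macrophage markers ranged from 10.99 to 11.09 in NPFF and from 10.81 to 11.11 in control. Groups did not overlap in 1 of the 8, Csf1r, which differed by 0.46 (SE 0.20), or 0.22 without control 1. Of the 24 it was 1, Tek, which differed by -0.08. Over all genes 3.67% did not overlap with NPFF higher and 4.92% with NPFF lower. Control 1 stood apart from the other arrays, with a standard deviation (SD) of 0.37 over genes around the other 5 arrays' mean, against 0.11 to 0.21 for each other array. It had the lowest value of the 6 arrays in 48.9% of all genes, and in 6 of the 8 genes of this set other than Mexis. Over all genes 11457 of 22180 were higher in NPFF with all arrays and 8670 without control 1.

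Mexis was lower in the NPFF cells (array feature 17425364). Its log2 intensities were 6.42, 6.46 and 6.33 in the NPFF arrays, against 6.65, 6.83 and 6.79 in the control arrays. All 3 NPFF arrays lay below all 3 control arrays, and the gap between the groups was 0.19. The means were 6.40 ± 0.07 in NPFF and 6.76 ± 0.09 in control (SD, n = 3 each), a difference of -0.35 (standard error, SE, 0.08), or 0.782-fold. Without control 1 the difference was -0.41, and with any single array left out it ranged from -0.41 to -0.32. The signal was dim, at the 51.2nd percentile of all genes, which is inside the range of the markers of other cell types. Features differ in how strongly they bind their target, so such percentiles say how bright a feature was and do not order transcripts by amount.

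**Figure D1:**
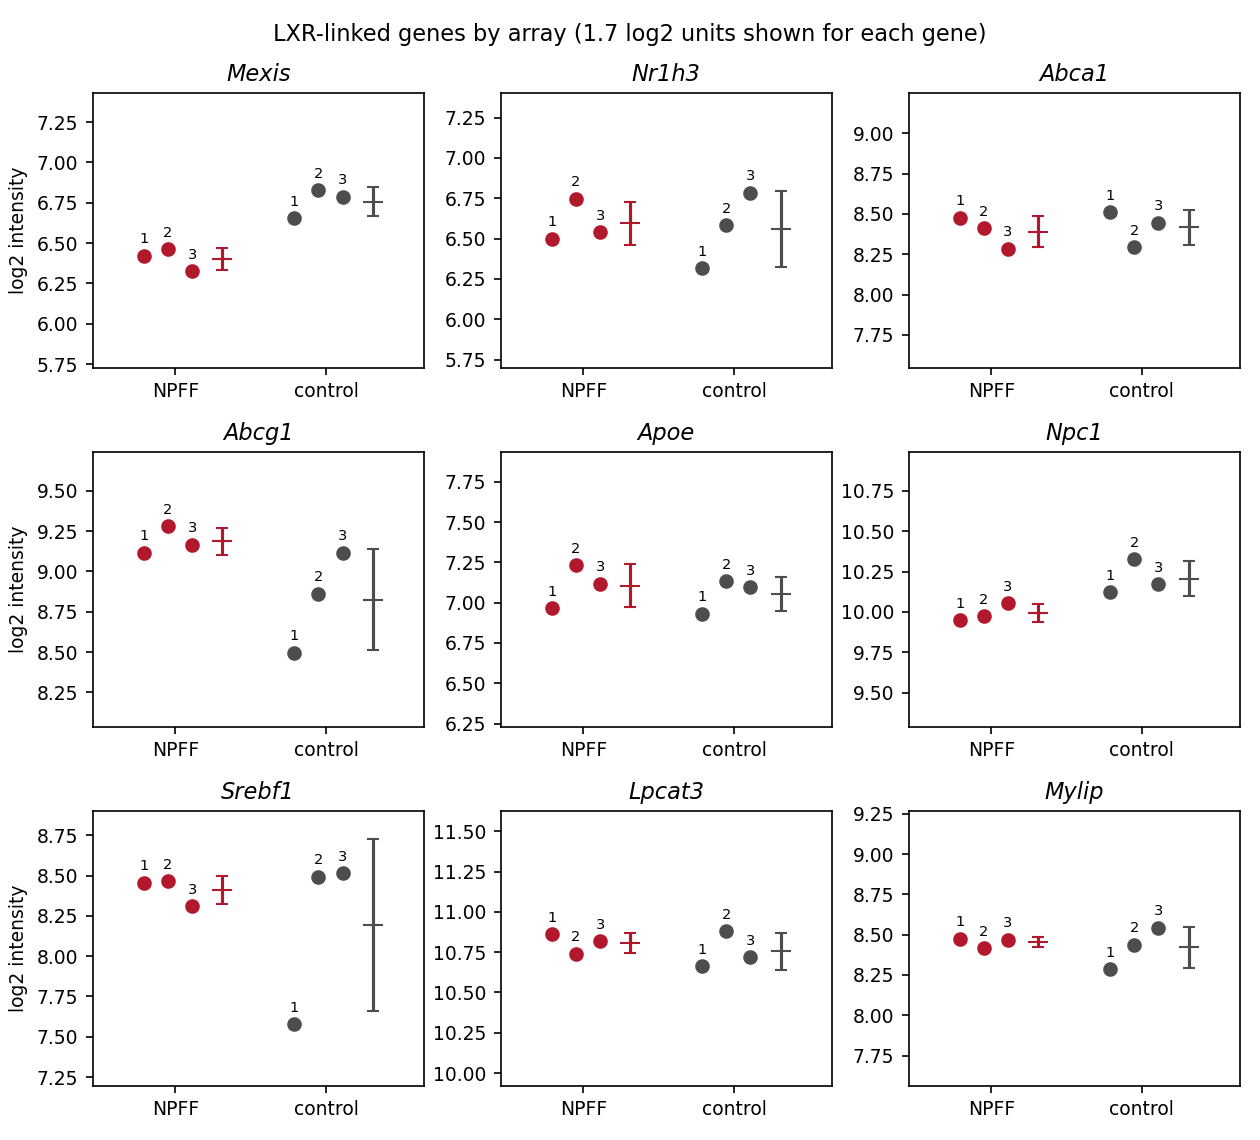
Log2 intensity (y axis, 1.7 units in each panel, starting at different values) of 9 genes on 3 NPFF arrays (red) and 3 control arrays (grey), with the replicate number above each point and the group mean ± SD (n = 3) beside the points. Mexis and Npc1 have every NPFF array below every control array, the groups overlap in the other 7 genes, and control 1 is the lowest array in Nr1h3, Abcg1, Apoe, Srebf1, Lpcat3 and Mylip.

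Abca1, the transporter that loads cholesterol onto lipid-poor apolipoprotein A-I and the neighbour of Mexis, was not lower by more than its error (feature 17425301). It stood at 8.48, 8.41 and 8.28 in the NPFF arrays, against 8.51, 8.29 and 8.45 in the control arrays. The groups overlapped fully, the highest and the second lowest of the 6 values being controls. Means of 8.39 ± 0.10 in NPFF and 8.42 ± 0.11 in control (SD, n = 3 each) gave a difference of -0.03 (SE 0.09). Its 95% interval, from -0.23 to 0.18 or 0.850-fold to 1.14-fold, lay on both sides of 0, and the difference between Abca1 and Mexis was not tested. By limma the adjusted p over all genes was 0.9996, and 78.0% of all genes had a difference of larger size. The sign itself was not fixed, since the difference was 0.02 without control 1 and 0.03 without NPFF 3. Abca1 lay at the 77.6th percentile of mean signal, above every marker of another cell type.

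Abcg1, which exports cholesterol to formed high-density lipoprotein, lay on the other side of 0 (feature 17335770). It stood at 9.12, 9.28 and 9.16 in the NPFF arrays, against 8.50, 8.86 and 9.12 in the control arrays. Controls 1 and 2 were low, whereas control 3 matched the lowest NPFF array. The means were 9.19 ± 0.08 in NPFF and 8.82 ± 0.31 in control (SD, n = 3 each), a difference of 0.36 (SE 0.16) with a 95% interval from -0.01 to 0.74 (limma, adjusted p = 0.9996). Without control 1 it was 0.20, without control 2 it was 0.38 and without control 3 it was 0.51. Against control 3 alone it was 0.07. With all arrays Mexis and Abcg1 had the 2 differences of greatest size in the set, in opposite directions, whereas without control 1 Npc1, at -0.26, came before Abcg1.

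The receptor Nr1h3, or LXR alpha, which macrophages make and which switches on its own gene in human cells, showed no difference beyond its error. It stood at 6.50, 6.75 and 6.54 in the NPFF arrays and at 6.32, 6.58 and 6.78 in the control arrays. The difference was 0.03 (SE 0.13), with a 95% interval from -0.29 to 0.36, and -0.09 without control 1. Like Mexis it was dim, at the 51.1st percentile. Apoe, the apolipoprotein that accepts exported cholesterol, stood at 6.97, 7.23 and 7.12 in the NPFF arrays and at 6.93, 7.13 and 7.10 in the control arrays. The J774 line is known for making little or no apolipoprotein E, and the Apoe signal lay at the 59.7th percentile, below that of the epithelial marker Krt8 at the 62.7th. Its difference of 0.05 (SE 0.09) is therefore a difference between dim signals, and it was -0.01 without control 1.

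Npc1, the membrane protein that hands cholesterol out of lysosomes, was lower in NPFF on its bright feature and not on its dim one. On feature 17352731 it stood at 9.95, 9.97 and 10.05 in the NPFF arrays, against 10.12, 10.33 and 10.17 in the control arrays. Every NPFF array lay below every control array, by a gap of 0.07, less than the range of 0.20 within the controls. The means were 9.99 ± 0.05 in NPFF and 10.21 ± 0.11 in control (SD, n = 3 each), a difference of -0.21 (SE 0.08) or 0.862-fold. The 95% interval ran from -0.40 to -0.03 (limma, adjusted p = 0.9996). With array weights limma gave an adjusted p of 0.0426, in a fit where 1127 genes passed. Control 3 then weighed 22.6, against 0.382 for control 2 and 0.0773 for control 1. Control 3 almost alone set the control level there, so that value is not read as a call. On feature 17348489 it stood at 5.72, 5.83 and 5.82 in the NPFF arrays, against 5.58, 5.84 and 5.94 in the control arrays. That feature differed by 0.00, and the mean over both features gave -0.11 with overlapping groups. On the bright feature the groups also overlapped when the deposited values were used directly or were only median-centred, with a difference of -0.22 either way.

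The lipid genes downstream of LXR showed no difference beyond their errors. Srebf1, whose product drives fatty acid synthesis, stood at 8.45, 8.46 and 8.31 in the NPFF arrays, against 7.58, 8.49 and 8.52 in the control arrays. Control 1 was the one low array, and the difference of 0.21 (SE 0.25) became -0.09 without it. Lpcat3, which places polyunsaturated chains in phospholipids, stood at 10.86, 10.74 and 10.82 in the NPFF arrays and 10.66, 10.88 and 10.72 in the control arrays, a difference of 0.05 (SE 0.08). Mylip, also called IDOL, the ubiquitin ligase that marks the LDL receptor for degradation, stood at 8.47, 8.42 and 8.47 in the NPFF arrays and 8.29, 8.44 and 8.54 in the control arrays, a difference of 0.03 (SE 0.08). The 95% intervals ran from -0.14 to 0.24 for Lpcat3 and from -0.16 to 0.23 for Mylip. Without control 1 Lpcat3 differed by 0.01 and Mylip by -0.04.

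**Figure D2:**
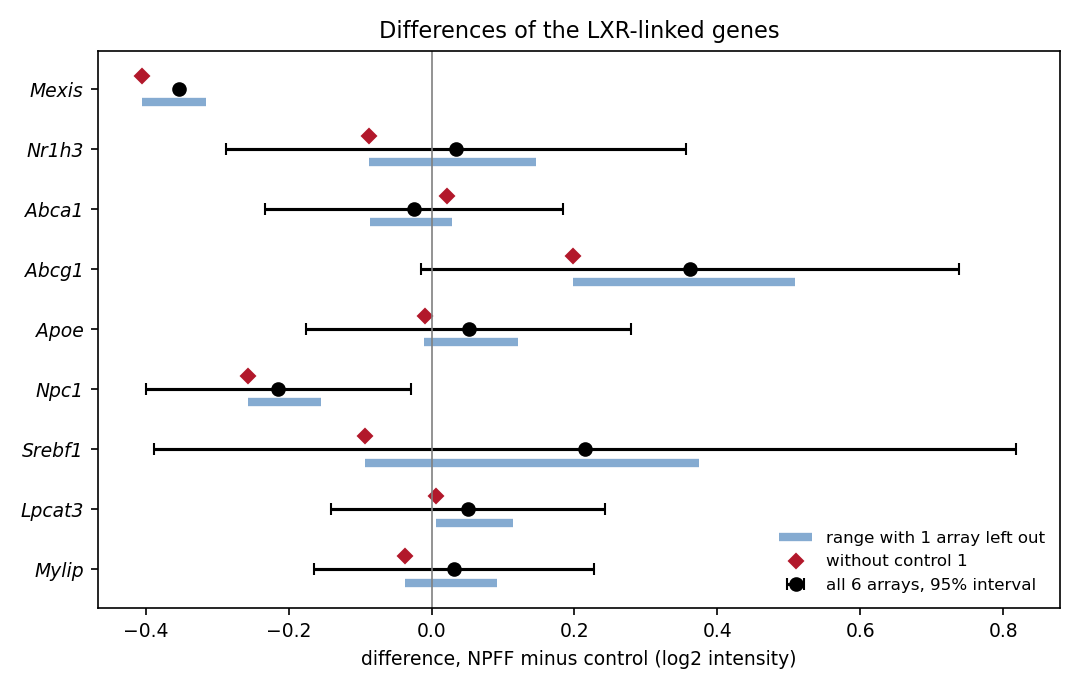
Difference between NPFF and control in log2 intensity (x axis) for 9 genes, as the value from all 6 arrays with its 95% interval (black), the range with 1 array left out (blue bar) and the value without control 1 (red diamond). Mexis chose the set and is drawn without an interval. With 1 array left out Mexis and Npc1 stay below 0, Abcg1 and Lpcat3 stay above, and the ranges of the other 5 genes cross 0; of the 8 intervals only that of Npc1 does not cross 0.

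Of the 8 measured genes other than Mexis, 6 were higher and 2 lower in NPFF, and their median difference was 0.04, beside 0.00 over all genes. By limma 0 of them passed an adjusted p under 0.05, as did 0% of all 22180 genes, among which 0.789 was the smallest. Unadjusted p-values under 0.05 were found for 1 lower gene (Npc1) and 0 higher ones, beside 1.67% and 0.834% of all genes. Groups did not overlap in 1 of the 8 with NPFF lower (Npc1 again) and in 0 with NPFF higher, beside 4.92% and 3.67% of all genes. Without control 1, 3 of the 8 were higher and the median was -0.02, beside -0.02 over all genes.

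Wider lists of the pathway were drawn up from textbook roles. LXR partners and coregulators gave 7 measured genes of 9, of which 5 were higher and 2 lower (median 0.09). Control 1 was the lowest array in 6 of the 7, and without it 3 were higher and the median was -0.01. Ddx17, the helicase partner of Mexis, stood at 10.32, 10.33 and 10.37 in the NPFF arrays, against 10.06, 10.35 and 10.36 in the control arrays, and its difference of 0.09 (SE 0.10) became -0.01 without control 1. Gps2, a subunit of the corepressor complex that holds LXR targets down, was 9.41, 9.50 and 9.48 in the NPFF arrays, against 9.21, 9.37 and 9.32 in the control arrays, with no overlap and a difference of 0.17 (SE 0.07). Rxrb, an RXR subunit, differed by 0.44 (SE 0.30), and by 0.06 without control 1. The coactivator Ncoa1 differed by -0.20 (SE 0.10), or -0.11 without control 1, and its relative Ncoa3 by 0.13 (SE 0.12), or 0.00 without it.

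Other LXR targets were divided with all arrays, with 7 higher and 7 lower among 14 measured of 16 and a median of -0.02. Control 1 was the lowest array in 6 of the 14. Without it 5 of them were higher and the median was -0.08, beside -0.02 over all genes. Pltp, the phospholipid transfer protein and an established LXR target, followed the direction of Mexis (feature 17394297). It stood at 10.48, 10.52 and 10.51 in the NPFF arrays, against 10.76, 10.98 and 10.79 in the control arrays. The gap between the groups, 0.24, exceeded the range within either. The difference was -0.34 (SE 0.08), or 0.789-fold, with a 95% interval from -0.53 to -0.16 (limma, adjusted p = 0.9996). With array weights limma gave an adjusted p of 0.0219. Control 3, at a weight of 22.6, almost alone set the control level in that fit, so that value is not read as a call. Across the other fits the Pltp difference stayed below 0. It could not change with the mean over features, the dim filter, the replicate block or the plain test. Since the groups did not overlap, leaving out any 1 array could not turn its sign, and it then ranged from -0.38 to -0.27. These values are a description and lend the Pltp difference no separate support. Pltp was bright, at the 97.0th percentile. Pltp is one gene of 14, named for its small p. Abcg8, a subunit of a sterol transporter of liver and gut, was 6.07 in each NPFF array and 6.17, 6.21 and 6.19 in the control arrays, a difference of -0.12 (SE 0.06) in a dim signal at the 39.8th percentile. The fatty acid synthase gene Fasn differed by 0.37 (SE 0.24) and by 0.09 without control 1, and Cd5l, a secreted macrophage protein, by -0.21 (SE 0.13). Cd5l was dim, at the 26.1st percentile, and differed by -0.34 without control 1 and by -0.09 without control 2.

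Of genes of cholesterol uptake, storage and transport, 12 of 14 were measured, 9 higher and 3 lower (median 0.04), and control 1 was the lowest array in 10 of them. Without control 1, 1 of the 12 was higher and the median was -0.07. Abca7, a lipid transporter related to Abca1, was 8.03, 8.13 and 8.19 in the NPFF arrays, against 7.06, 7.997 and 7.96 in the control arrays, and its difference of 0.45 (SE 0.25) was 0.14 without control 1. Scarb1, the high-density lipoprotein receptor SR-BI, differed by 0.20 (SE 0.20), or by -0.04 without control 1. Nceh1, which hydrolyses stored cholesteryl ester, and Gramd1b, a sterol carrier between membranes, each differed by -0.13, with SEs of 0.09 and 0.08, and by -0.05 and -0.07 without control 2. Without control 1 Nceh1 differed by -0.21 and Gramd1b by -0.17. With the mean over its features Nceh1 differed by -0.11.

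Enzymes that make or clear oxysterols, the natural LXR ligands, gave 4 measured genes of 5, of which 1 was higher. Ch25h, which makes 25-hydroxycholesterol, was 6.29, 6.25 and 6.26 in the NPFF arrays, against 6.35, 6.44 and 6.53 in the control arrays. The groups did not overlap, and the difference of -0.17 (SE 0.07) was in a dim signal at the 46.0th percentile. With the mean over its features Ch25h differed by -0.15. Cyp27a1, which makes 27-hydroxycholesterol, differed by 0.10 (SE 0.07), or 0.04 without control 1, Cyp46a1 by -0.12 (SE 0.08), or -0.07 without control 1, and Cyp7b1 by -0.02 (SE 0.08).

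SREBP processing and sterol synthesis gave 13 measured genes of 15, 7 higher and 6 lower, with a median of 0.02. Without control 1, 2 of the 13 were higher and the median was -0.07. Srebf2, the master regulator of sterol synthesis, was 9.89, 9.84 and 9.90 in the NPFF arrays, against 8.85, 10.00 and 9.77 in the control arrays, and its difference of 0.34 (SE 0.28) was -0.01 without control 1. Mvd, an enzyme of the mevalonate pathway, differed by 0.30 (SE 0.23), or 0.04 without control 1. Scap, the escort of SREBP proteins, differed by 0.18 (SE 0.14), or 0.05 without control 1. With the mean over its features Scap differed by 0.10. Cyp51, a lanosterol demethylase, was 7.70, 7.62 and 7.63 in the NPFF arrays, against 7.80, 8.04 and 7.72 in the control arrays. These groups did not overlap, and the difference was -0.21 (SE 0.09). It was -0.23 without control 1, -0.11 without control 2 and -0.27 without control 3. Mbtps2, a protease that releases SREBP from its membrane, differed by -0.17 (SE 0.11), and by -0.07 without control 1. Over the 50 measured genes of the 5 lists 0 passed limma's adjusted threshold, 2 were lower and 0 higher at an unadjusted p under 0.05, beside 1.67% and 0.834% of all genes. Groups did not overlap in 5 of the 50 with NPFF lower and 2 with NPFF higher, beside 4.92% and 3.67% of all genes. Control 1 was the lowest array in 62.0% of them, beside 48.9% of all genes, and leaving it out left 13 of the 50 higher in NPFF (median -0.06), beside 8670 of all 22180 genes (median -0.02).

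**Figure D3:**
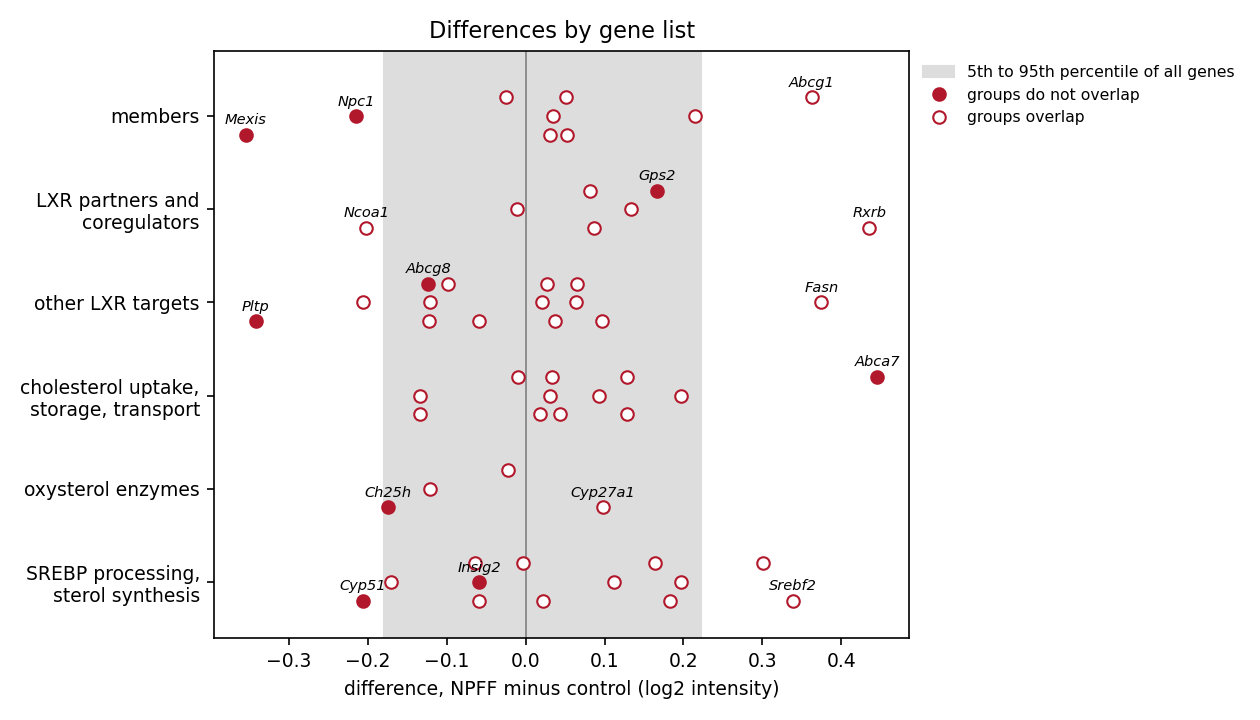
Difference between NPFF and control in log2 intensity (x axis) for the 9 genes of the set (top row) and the 50 measured genes of 5 pathway lists (a row each; points are offset vertically for legibility), filled where the groups did not overlap. The grey band spans the 5th to the 95th percentile of all 22180 genes, from -0.18 to 0.22, and most genes lie within it, with Mexis, Npc1, Pltp, Ncoa1, Cd5l and Cyp51 to its left and Abcg1, Rxrb, Fasn, Abca7, Mvd and Srebf2 to its right.

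The measured genes next to Mexis showed no difference beyond their errors. By the order of genes in the RefSeq table (GRCm38.p6), the protein-coding genes Nipsnap3a, Nipsnap3b and Abca1 lie next to Mexis on one side and Slc44a1 and Fsd1l on the other, with the noncoding RNAs Lexis1 and 4930522O17Rik between Abca1 and Mexis. These 5 protein-coding genes differed by between -0.06 and 0.06, with SEs of 0.07 to 0.09, and their groups overlapped. Lexis1, an LXR-induced noncoding RNA known from mouse liver, was 5.65, 5.38 and 5.42 in the NPFF arrays and 5.56, 5.43 and 5.59 in the control arrays. Its difference was -0.04 (SE 0.09) in a signal at the 18.4th percentile, and 4930522O17Rik differed by -0.06 (SE 0.09). Of these 8 measured genes only Mexis had groups that did not overlap, and its lower level is what chose the set. Over all genes 4.92% did not overlap with NPFF lower and 3.67% with NPFF higher.

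Farther out on the Slc44a1 side lay Tmem38b, a cation channel subunit of the endoplasmic reticulum, named here after its value was seen. It stood at 9.36, 9.43 and 9.85 in the NPFF arrays, against 8.29, 8.74 and 8.70 in the control arrays. The groups did not overlap, and the difference was 0.97 (SE 0.17), or 1.95-fold (limma, adjusted p = 0.9996). With array weights limma gave an adjusted p of 0.0123. Control 3, at a weight of 22.6, almost alone set the control level in that fit, so that value is not read as a call.

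**Figure D4:**
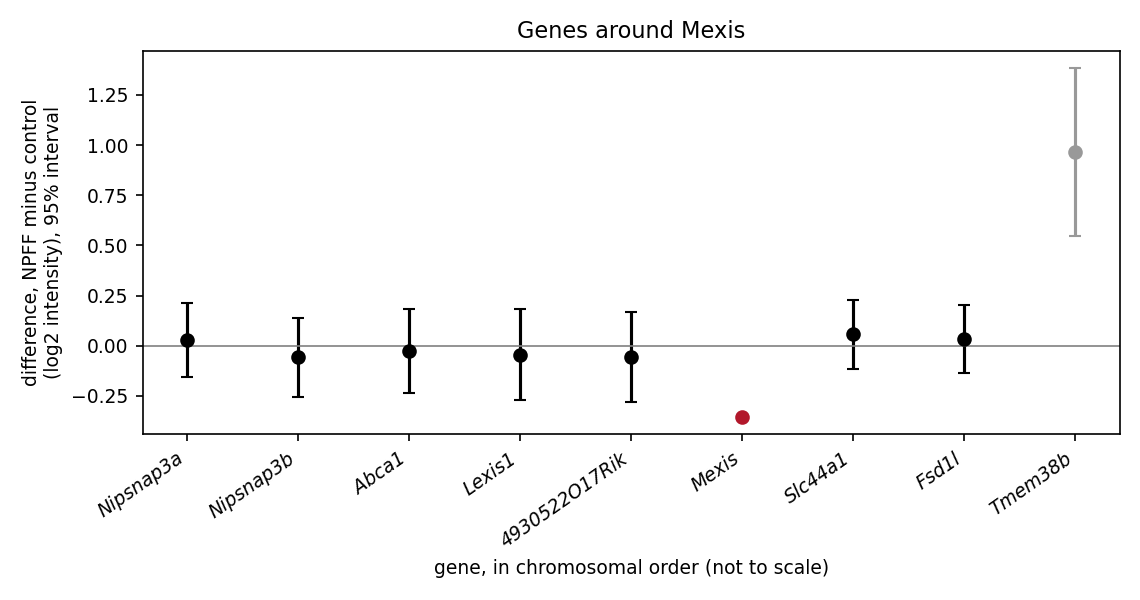
Difference between NPFF and control in log2 intensity with its 95% interval (y axis; none is drawn for Mexis) for measured genes around Mexis in chromosomal order (x axis, not to scale), with Mexis in red and Tmem38b, chosen after its value was seen, in grey. The intervals of the 7 genes around Mexis cross 0, Mexis lies at -0.35 and Tmem38b at 0.97.

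Profiles over the 6 arrays were also compared across all genes, by the root-mean-square difference between each gene's values after subtraction of their mean. The 3 named genes closest to Mexis were Gsap, at 0.04, Slc35f5, at 0.05, and Sqor, the mitochondrial sulfide-oxidising enzyme, at 0.06, where the SD of Mexis over the arrays was 0.21. Chosen for that closeness, these genes had to be lower in NPFF by about as much as Mexis, here by 0.30 to 0.32. None of them is in the pathway lists. The 3 closest to Abca1 were Zfyve28, Cpa3 and Gdap2, at 0.02 each, where the SD of Abca1 was 0.09. Their differences, likewise set by the choice, lay between -0.05 and -0.03.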

How the data were processed

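Log2 intensities per transcript cluster, as deposited by the authors, were available for 6 arrays; their unit was read from the values, and per the labels' protocols 500 ng of total RNA per sample was labelled with an Affymetrix whole-transcript kit. How the authors corrected background and normalized, and on which genome build, is not given in the sources used here. A platform annotation paired 23521 of 33794 features with exactly 1 symbol, 1814 with several and left 8459 unnamed. The sorted values of the arrays departed from their mean by up to 0.17, so all features were quantile-normalized. The brightest feature per gene gave 22180 genes; no dim feature was removed. NPFF was compared with control by limma 3.58.1 in R 4.3.3 (lmFit and eBayes on group, 4 residual degrees of freedom), two-sided, calling genes at 0.05 after Benjamini-Hochberg adjustment across the whole table. The scripts were tested on simulated data.

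The genes of the set and the lists were chosen with earlier results of these data known. Named genes were the members, up to 4 genes of smallest p per list, Ddx17, Srebf2, the 3 nearest protein-coding neighbours on each side of Mexis, of which 1 is not reported here, and 3 genes of closest profile to Mexis and to Abca1. Of the 59 list genes, 9 had no feature of their own and were not analysed here. Arrays carry no counting depth, and 3 per group limit the precision. Alternatives were other normalizations, the mean over features, a filter on dim genes, a replicate block, array weights, a plain two-sample test, all features, and leaving out arrays.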

Additional observations from a re-analysis of the deposited data

How the results depend on the processing

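Mexis, whose lower level chose the set, was lower in each of the 15 alternatives run on it, at -0.41 to -0.32. Its difference could not change with the mean over features, the dim filter, the replicate block or the plain test, which all gave -0.35. This is a description and lends the Mexis difference no separate support. Abca1 stayed within 0.09 of 0 throughout. Its sign turned in the values as deposited, without the added quantile step (0.00039), and after median centring (0.0028). The Abca1 difference ranged from -0.087 to 0.028 with 1 array left out. The number of genes with an adjusted p under 0.05 was 0 in each alternative except array weights (1127), where the weights ran from 0.0773 for control 1 to 22.6 for control 3. With array weights Npc1 (adjusted p = 0.0426), Pltp (0.0219), Cd5l (0.0384), Ch25h (0.0231) and Tmem38b (0.0123) passed, by limma. The cause was not tested. Control 3 almost alone set the control level in that fit, so these adjusted p-values are not read as calls. Unadjusted p-values under 0.05 numbered 556, and 235 to 2397 in the other alternatives that called 0. The number of genes of the set whose groups did not overlap, Mexis included, was 2, beside 4.92% of all genes lower and 3.67% higher. It was 1 in the values as deposited, after median centring and with the mean over features. With cyclic loess and without NPFF 1, control 1, control 2 or control 3 it was 3 (Abcg1 higher in 3 of these 5). Against control 3 alone it was 6, an alternative chosen after seeing the data, in which 1 control decides. Groups of fewer arrays more easily fail to overlap. The share over all genes in each alternative is not given here, so the larger counts are not read as a stronger difference. Signs of small differences turned as follows. With array weights Nr1h3 was -0.20, Apoe -0.0086, Srebf1 -0.096, Mylip -0.083, Ddx17 -0.018 and 4930522O17Rik 0.061. Against control 3 alone Nr1h3 was -0.19, Srebf1 -0.11, Mylip -0.089, Cyp7b1 0.0018, Mbtps2 0.0056, Ddx17 -0.016 and 4930522O17Rik 0.080. With 1 array left out the ranges were -0.088 to 0.146 for Nr1h3, -0.011 to 0.121 for Apoe, -0.094 to 0.375 for Srebf1, -0.037 to 0.092 for Mylip, -0.042 to 0.363 for Scarb1, -0.071 to 0.040 for Cyp7b1, -0.011 to 0.138 for Ddx17, -0.0077 to 0.569 for Srebf2, -0.017 to 0.088 for Nipsnap3a, -0.126 to 0.0060 for Lexis1, -0.126 to 0.0025 for 4930522O17Rik and -0.0069 to 0.085 for Fsd1l. No other gene followed turned its sign. The replicate number as a block gave 0 genes past the adjusted threshold and 396 at an unadjusted p under 0.05. Deviations of same-numbered arrays correlated at 0.23, 0.45 and -0.33, so the numbers were not taken as pairs. The precision of every value is limited by 3 arrays per group, and for Mexis, Nr1h3, Apoe, Cd5l, Abcg8, Ch25h, Cyp46a1, Cyp7b1, Lexis1, 4930522O17Rik, Nipsnap3a and Fsd1l also by signals within the brightness range of markers of other cell types.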
